A study of Mus musculus with 2 samples.

Results

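Cells caught in S phase, the stretch of the cell cycle in which DNA is copied, were examined among epithelial cells of the mouse jejunum. A cell was placed in S phase when at least 4 of the transcripts Mcm5, Mcm6, Pcna, Rrm2, Tyms and Uhrf1 were detected, when at most 1 of the mitotic transcripts Mki67, Top2a, Cdk1, Ccnb1 and Cenpf was detected, and when Lyz1 and the defensin (Defa) genes of Paneth cells together held under 10% of its unique molecular identifiers (UMIs, each standing for 1 captured RNA molecule). Of 22282 cells with 500 or more genes and at most 20% mitochondrial UMIs, 419 met this rule. They were 236 of 11263 cells of the Fc control library and 183 of 11019 cells of the FZD5/8 antagonist library. The detection of these 11 genes chose the cells, so their values below describe the choice and are no result.

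The allele common to all mice was Lgr5-eGFP-IRES-CreER, which places a green fluorescent protein under the locus of Lgr5, a marker of crypt base stem cells, and cells positive for that protein had been sorted. Both conditions were labelled female and 10 to 12 weeks old, with 3 mice each. The mice had received either an Fc protein as control or an antagonist of FZD5 and FZD8, receptors through which Wnt ligands act on crypt cells, and the comparison asks how crypt cells differ when these receptors are blocked. The labels give neither dose nor route nor length of treatment. Each condition has 1 library whose cells cannot be assigned to single mice, and so each condition was 1 sample. No test was made, there is no replicate check, and every comparison is between these libraries and not between the conditions. All intervals are at 95% and cover counting error only. Levels are CPM, a gene's UMIs in the S phase cells of a library scaled to counts per 1e6 of all their UMIs. A ratio is the antagonist level divided by the control level.

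The libraries stood apart in ways that touch every comparison. The S phase cells of the control library held 1885239 UMIs, with a median of 6931 UMIs and 2469 genes per cell. Those of the antagonist library held 847285, with medians of 4088 and 1681, so the antagonist cells were shallower. Mitochondrial transcripts were at medians of 2.56% and 2.84% of UMIs. Although both libraries are labelled female, Y-linked transcripts were at 118.3 CPM (223 UMIs) in the control S phase cells and 3.54 CPM (3 UMIs) in the antagonist S phase cells. The level of Xist, the RNA by which female cells silence an X chromosome, was 1.06 CPM and 436 CPM. Sex-linked transcripts and condition cannot be told apart here. Between the libraries, 145 barcodes were shared, 67 of them among kept cells in each, and they included 1 S phase cell of each library. Markers of B and plasma cells, T cells, myeloid cells and stromal cells were near 0 in S phase cells. Their summed levels in the control and antagonist cells were 5.30 and 4.72 CPM for B and plasma cells and 7.43 and 2.36 CPM for myeloid cells. The 8 T cell markers had 4 UMIs in the control cells and 0 in the antagonist cells, and the 8 stromal and endothelial markers had 0 in both.

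Before S phase, cells load the MCM helicase onto replication origins in G1. The E2F transcription factors, released at the G1/S boundary, then drive the genes for the helicase, the polymerases and their sliding clamp, the enzymes that make deoxynucleotides, and the factors that rebuild chromatin on the daughter strands. In the small intestine, cells divide in the crypts. Stem cells at the crypt base are held by Wnt signals, and their daughters divide rapidly in the transit-amplifying zone while they turn to the absorptive or secretory lineage.

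The 6 genes that chose the cells stand for different steps of DNA copying. Mcm5 (ENSMUSG00000005410, GRCm38 chromosome 8, 75109569 to 75128439) and Mcm6 (chromosome 1, 128331590 to 128359664) encode subunits of the helicase. Pcna (chromosome 2, 132249162 to 132253314) encodes the sliding clamp. Rrm2 (chromosome 12, 24708241 to 24714146) encodes the small subunit of ribonucleotide reductase, and Tyms (chromosome 5, 30058202 to 30073617) the enzyme that makes thymidylate. Uhrf1 (chromosome 17, 56303321 to 56323486) encodes a protein that carries DNA methylation over to the new strand. E2F factors are known for binding sites near the starts of such genes. The regions before the RefSeq starts of Mcm5 and Mcm6 are shown because each holds overlapping matches to E2F-like letters. Both run 5′ to 3′ toward the gene on GRCm38.p6, with capitals at matches to TTTGGCGC, TTTCCCGC, TTTCGCGC or TTTGCCGC on either strand.

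Mcm5, plus strand, chr8:75109259-75109508: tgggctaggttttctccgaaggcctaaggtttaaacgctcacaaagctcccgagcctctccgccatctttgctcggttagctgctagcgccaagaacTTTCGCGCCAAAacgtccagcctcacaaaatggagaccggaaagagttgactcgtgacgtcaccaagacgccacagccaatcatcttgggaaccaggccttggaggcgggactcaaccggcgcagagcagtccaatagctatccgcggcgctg

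Mcm6, minus strand, chr1:128359706-128359955: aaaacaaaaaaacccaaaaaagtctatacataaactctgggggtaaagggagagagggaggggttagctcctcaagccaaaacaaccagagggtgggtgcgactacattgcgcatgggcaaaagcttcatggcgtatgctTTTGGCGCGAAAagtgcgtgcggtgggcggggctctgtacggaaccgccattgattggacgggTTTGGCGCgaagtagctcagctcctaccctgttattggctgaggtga

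In the Mcm5 window the 2 matches overlapped on opposite strands and began at -153 and -149 from the start. The Mcm6 window held 3 matches, at -110, -106 and -47, the first pair of them overlapping. In windows of 300 bases (250 before and 50 after each start), 744 of all 32851 RefSeq promoters held at least 1 match (2.26%). Of the 6 genes, 3 had a match, Mcm5, Mcm6 and the downstream of 2 starts of Uhrf1. Pcna, Rrm2 and Tyms held none of these letters in their windows. Of 91 replication genes outside the rule that were found in the table, 27 had a match (29.7%), against 704 of all 27025 genes (2.60%). Among 29 genes of G2 and mitosis outside the rule 0 had one, and among 21 stem cell genes 1 did. A match describes letters, not binding.

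The S phase cells sat near the lower edge of the rule. In the control library 174 had exactly 4 of the 6 genes, 54 had 5 and 8 had all 6, and in the antagonist library 142, 33 and 8 did. A mitotic transcript was detected in 166 control and 130 antagonist cells, most often Top2a, the topoisomerase that untangles copied DNA, in 85 and 78 of them. Just outside the rule lay 435 control and 360 antagonist cells with 3 of the 6 genes, and 223 and 199 cells with 4 or more of them but 2 mitotic genes. The per-cell sum of the 6 genes had a median of 878 CPM in control cells with 4 genes and 662 CPM in those with 3, and of 1349 and 1163 CPM in the antagonist cells.

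Most cells that met the S phase threshold were left out by the mitotic limit. At least 4 of the 6 genes were found in 1174 control cells (10.4%) and 1124 antagonist cells (10.2%). Of these, 236 of the control cells (20.1%, interval 17.8 to 22.5) and 186 of the antagonist cells (16.5%, 14.4 to 18.9) had at most 1 mitotic gene, and the Paneth limit removed 3 of the latter. Cells with all 6 S phase genes and all 5 mitotic genes numbered 25 among control cells and 182 among antagonist cells. Cells with both sets of genes were deep, with medians of 10181 and 10954 UMIs.

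The share of cells in S phase could not be ordered between the libraries, because its direction changed with depth and with the S phase cells counted. With all UMIs, 2.10% of control cells (interval 1.84 to 2.38) and 1.66% of antagonist cells (1.43 to 1.92) were in S phase, a ratio of 0.793 (0.650 to 0.965). With every cell thinned at random to 3000 UMIs (3727 control and 5983 antagonist cells were shallower and were dropped), the shares were 1.23% (93 of 7536) and 1.67% (84 of 5036). That ratio was 1.35 (0.994 to 1.84). At 2000 UMIs it was 1.67 (1.14 to 2.47), and at 5000 UMIs it was 0.931 (0.676 to 1.27). With all UMIs but without the S phase cells that had at least 2 goblet, tuft or enteroendocrine markers of 1 kind, 152 control and 153 antagonist cells remained, 1.35% and 1.39% of the kept cells. Such marker cells were taken out of the S phase count only and not out of the kept cells. Their removal needs detected markers, so it too depends on depth, and the control S phase cells were deeper. The neighbouring states kept their order at both depths. At 3000 UMIs, cells with mitotic genes and without the S phase set made up 32.2% of control and 49.4% of antagonist cells, and cells with at most 1 gene of each set, called non-cycling here, made up 50.5% and 29.7%. With all UMIs these shares were 31.5% and 37.3%, and 44.2% and 38.6%.

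**Figure D1:**
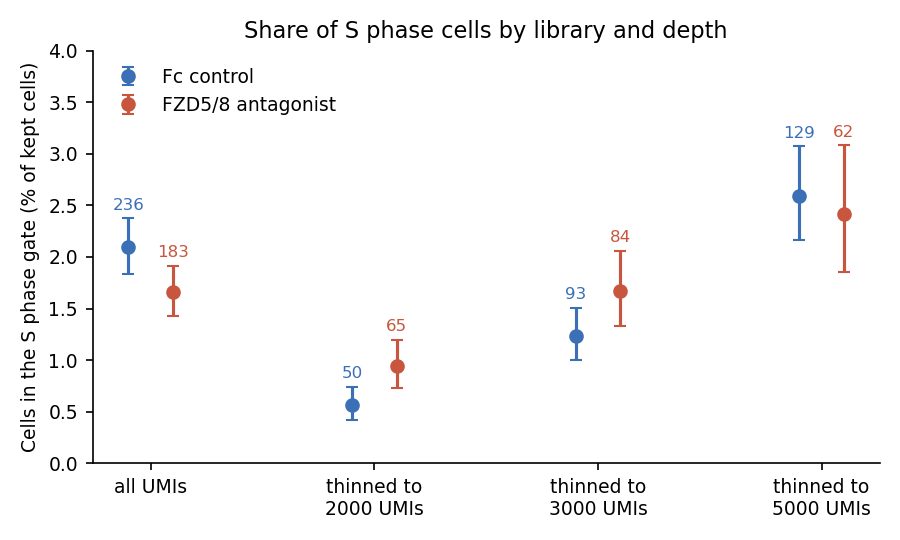
Share of kept cells in the S phase gate (%, vertical axis) in the Fc control and FZD5/8 antagonist libraries, with all UMIs and with every cell thinned to 2000, 3000 or 5000 UMIs (horizontal axis). Points are shares and bars exact 95% binomial intervals; the control share is the higher with all UMIs (2.10% and 1.66%) and the lower at 3000 UMIs (1.23% and 1.67%).

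The same rule was applied to differentiated cells, defined by at least 3 tuft or 5 enterocyte markers, as a reference for background. The part of free RNA in the droplets was not tested. Among tuft marker cells of up to 10000 UMIs, 0 of 232 control cells (median 3947 UMIs, an upper limit of 1.29% from a count of 0) and 1 of 342 antagonist cells (median 2379 UMIs) met it. Among enterocyte marker cells, 0 of 119 control cells (median 5215 UMIs, upper limit 2.52%) and 4 of 667 antagonist cells (0.600%, median 3635 UMIs) did. Single transcripts were more frequent there. Tyms was found in 10.9% of control and 29.2% of antagonist enterocyte marker cells, and Mcm5 in 2.52% and 6.15%.

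The replication genes that the rule did not use were also high in the gated cells. Against non-cycling cells of the same library, 95 of 99 measured replication genes were higher in S phase cells in each library. They were at least 1.5-fold higher for 80 genes in the control library, where 5.07% of all 5894 genes counted were so, and for 86 in the antagonist library, where 8.96% were. The median log2 ratios were 1.16 and 1.02, and over all genes 0.04 and 0.05. A gene was measured when the S phase cells of both libraries together had at least 50 of its UMIs, which left out 17 of 116 replication genes. Cells were gated on genes of the same process, so this describes the cells and carries no test. Cdc6, the loader of the MCM helicase, was 6.03-fold higher in S phase than in non-cycling cells of the control library and 4.75-fold higher in the antagonist library. Cyclin E1 (Ccne1), the partner of CDK2 at S phase entry, was 6.28-fold and 3.66-fold higher. Mki67, whose product coats mitotic chromosomes, was at 0.563 and 0.540 times its non-cycling level, and non-cycling cells carry the same limit of at most 1 mitotic gene. Top2a was found in 36.0% of control S phase cells (median 6931 UMIs) and 11.7% of control non-cycling cells (median 2916 UMIs).

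**Figure D2:**
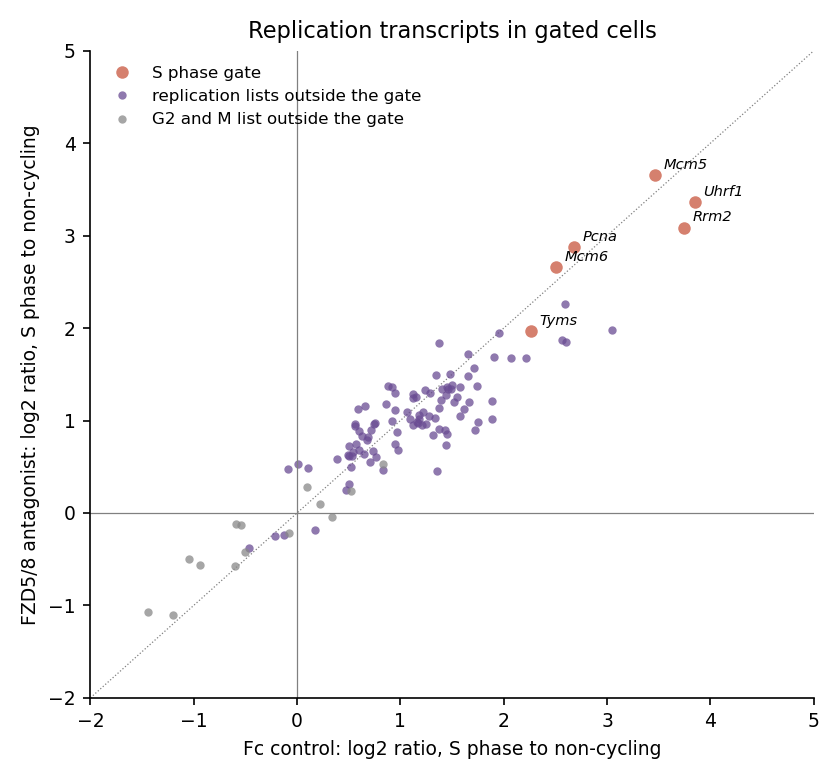
Log2 ratio of S phase to non-cycling cells in the Fc control library (horizontal axis) and in the FZD5/8 antagonist library (vertical axis). Each point is a gene of the rule, a replication gene outside it or a gene of G2 and mitosis outside it. Of the 99 replication genes, 95 lie above 0 on each axis. All genes counted, which are not drawn, had medians of 0.04 and 0.05.

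Between the libraries, the genes of the rule were at higher levels in the antagonist S phase cells. Mcm5 was at 90.2 CPM in control and 122 CPM in antagonist cells, and Mcm6 at 172 and 221 CPM. Pcna was at 185 and 308 CPM, Tyms at 225 and 322 CPM. Rrm2 was at 68.4 and 159 CPM, Uhrf1 at 142 and 228 CPM. This order moved with the depth at which the rule was applied. In cells that met the rule after thinning to 3000 UMIs (93 control and 84 antagonist cells, levels then taken from all their UMIs), the ratios of these genes ran from 0.814 for Uhrf1 to 1.24 for Rrm2, and the interval of each included equality. These cells, chosen at equal depth after the data had been seen, are used below as a second reading of each group. Of the 93 and 84 cells, 49 and 61 also met the rule with all UMIs. Thinning only removes UMIs, so the others had enough S phase genes but exceeded the mitotic or Paneth limit at full depth. Cells with both S phase and mitotic genes had median replication sums of 12217 CPM in control and 9097 CPM in antagonist cells. In S phase cells these were 10187 and 11650.5 CPM. How far this mixture shaped the equal-depth ratios was not tested.

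Over all 5894 genes counted, 361 were at least 1.5-fold higher in antagonist S phase cells (6.12%) and 830 at least 1.5-fold lower (14.1%), with a median log2 ratio of -0.09. In the cells gated at equal depth, 8.30% of the same genes were at least 1.5-fold higher and 18.4% lower. These shares are the background for the groups that follow, and they moved with the floor on summed UMIs. With 20 or more UMIs, 658 of 8435 genes were at least 1.5-fold higher and 1579 lower. With 200 or more, 119 of 2050 were higher and 135 lower. The floor applies to UMIs summed over both libraries, of which the control cells held more, so it favours genes high in control cells. How far it shaped the excess of lower genes was not tested.

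The replication genes outside the rule were at similar levels in both libraries. Of the 99 measured, 12 were at least 1.5-fold higher and 3 at least 1.5-fold lower in antagonist cells, with a median log2 ratio of 0.08. Gated at equal depth, 2 were higher and 18 lower by that factor, near the background for lower genes, and the median was -0.26. The direction of the group as a whole therefore turned with the gate.

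By role, none of the 11 measured genes of origin licensing passed 1.5-fold in either direction. Mcm7, another helicase subunit, was at 98.1 CPM in control and 131 CPM in antagonist cells (ratio 1.33, interval 1.05 to 1.70), and at 0.811 (0.548 to 1.19) at equal depth. Cdc6 was at 30.8 and 41.3 CPM, Orc2, a subunit of the origin recognition complex, at 36.1 and 29.5 CPM, and Orc4 at 28.6 and 23.6 CPM, each with an interval that included equality. Among 8 measured genes of origin firing 1 passed. Gins3, a subunit of the GINS complex that activates the helicase, had 16 and 21 UMIs (8.49 and 24.8 CPM, ratio 2.92, 1.45 to 5.99), and 1.78 (0.670 to 4.86) at equal depth. Of the 26 polymerase, clamp and strand synthesis genes 0 passed. At its ends stood Prim1, the catalytic subunit of primase, at 71.1 and 50.8 CPM and Rpa3, a subunit of the single-strand binding protein RPA, at 133 and 196 CPM. Rfc4, part of the clamp loader, was at 179 and 262 CPM, and its ratio of 1.46 (1.23 to 1.74) was 0.973 (0.773 to 1.22) at equal depth.

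Of 17 measured genes of nucleotide supply 3 were higher by 1.5-fold and 1 was lower. At equal depth 0 were higher and 3 lower by that factor (17.6%), near the background of 18.4%. Thymidine kinase 1 (Tk1), which salvages thymidine, was at 87.0 CPM in control and 164 CPM in antagonist cells, a ratio of 1.89 (1.49 to 2.38) and of 1.39 (1.04 to 1.84) at equal depth. Paics, an enzyme of purine synthesis, was at 142 and 86.2 CPM, 1.65-fold lower (1.27 to 2.17), and 1.60-fold lower at equal depth. Gart, another purine enzyme, was at 94.95 and 67.3 CPM, 1.41-fold lower (1.04 to 1.94). For Paics and Gart the interval excluded equality on both readings.

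Among 17 genes that copy or rebuild chromatin, 2 were higher and 1 was lower by 1.5-fold. H2afz, the histone variant H2A.Z, was at 1503 CPM in control and 2467 CPM in antagonist cells, a ratio of 1.64 (1.55 to 1.74) that was 1.29 (1.20 to 1.40) at equal depth. The lower member was Cdca7 (chromosome 2, 72476159 to 72486893), a nuclear protein that helps to maintain DNA methylation and is also a marker of crypt base cells. It was at 381 CPM in control and 185 CPM in antagonist cells, 2.06-fold lower (1.73 to 2.46), and 1.94-fold lower at equal depth. Per cell it had a median of 2.5 UMIs (0 to 16) in control and 1 UMI (0 to 5) in antagonist S phase cells. Cdca7 was thus lower in both readings, unlike the replication genes as a group.

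Checkpoint and repair genes had 6 of 20 members higher by 1.5-fold and 1 lower with all UMIs, and 0 and 4 at equal depth. Brca1, which repairs broken forks, was at 35.0 and 80.3 CPM (ratio 2.29, 1.61 to 3.27), with an equal-depth ratio of 1.28 whose interval included equality (0.794 to 2.05). Rmi2, a subunit of a complex that resolves joined DNA molecules, was at 28.1 and 15.3 CPM (0.546, 0.273 to 1.02). Pclaf, a partner of Pcna that lies outside these lists, was among the genes with the highest ratios. It was at 265 CPM in control and 953 CPM in antagonist cells, a ratio of 3.598 (3.21 to 4.03), and 1.31 (1.15 to 1.48) at equal depth. Hist1h1a, a replication-linked linker histone, was at 16.4 and 106 CPM, and its ratio of 6.46 (4.25 to 10.1) became 1.08 (0.764 to 1.53).

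Of 19 measured G1/S regulators, 5 were at least 1.5-fold higher and 3 at least 1.5-fold lower in antagonist cells. At equal depth 0 were higher and 4 lower by that factor. The cyclins E, Ccne1 at 30.2 and 56.7 CPM and Ccne2 at 24.4 and 62.6 CPM, were higher with all UMIs (1.87 and 2.56), but at equal depth their ratios were 0.922 (0.490 to 1.69) and 0.901 (0.531 to 1.51). E2f8, a repressor of the E2F family, was at 27.6 and 80.3 CPM (2.91, 1.998 to 4.26), with 1.22 (0.769 to 1.94) at equal depth. E2f1 had 32 and 20 UMIs. Among the partners that sense growth signals in G1, Cdk6, the kinase that cyclins D activate, was at 154 and 64.9 CPM, 2.37-fold lower (1.77 to 3.22), and 2.19-fold lower at equal depth. Cyclin D1 (Ccnd1), a gene long linked to Wnt signalling, was at 234 and 169 CPM, 1.39-fold lower (1.15 to 1.69), and 1.47-fold lower at equal depth. Cyclin D2 (Ccnd2) was at 373 and 362 CPM, with a ratio of 0.972 (0.847 to 1.11). Cdk6 and Ccnd1 were thus lower on both readings and Ccnd2 had intervals that included equality. Among the CDK inhibitors, Cdkn1b was at 64.7 and 44.9 CPM (0.693, 0.468 to 1.01) and Cdkn1a had 25 and 18 UMIs. Myc, which drives growth in crypt cells, was at 69.0 and 57.8 CPM with an interval that included equality.

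Transcripts of G2 and mitosis outside the gate were higher in antagonist S phase cells. Of 14 measured members of 35, 12 were at least 1.5-fold higher and 0 were lower, with a median log2 ratio of 1.05. At equal depth 3 of the 14 passed and the median was 0.43, against -0.09 for all genes. In non-cycling cells, which carry the same mitotic limit, the median of these genes was 0.84. The limit counts detected genes, and the antagonist S phase cells were shallower (medians of 4088 UMIs and 6931 in control). Its part in these values was not tested. Birc5, which encodes survivin of the chromosomal passenger complex, was at 21.2 and 81.4 CPM, with a ratio of 3.84 (2.56 to 5.82) and of 1.77 (1.18 to 2.66) at equal depth. Prc1, which bundles the microtubules of the spindle midzone, was at 24.4 and 90.9 CPM, with ratios of 3.73 (2.55 to 5.49) and 1.51 (1.02 to 2.23). Nusap1, a spindle protein, was at 12.2 and 42.5 CPM, with 3.48 (2.01 to 6.16) and 1.41 (0.856 to 2.34). Smc4, a condensin subunit, was at 110 and 130 CPM with an interval that included equality. Fbxo5, the inhibitor of the anaphase-promoting complex, was at 20.7 and 72.0 CPM (3.48, 2.29 to 5.34), and at 1.17 (0.730 to 1.85) at equal depth.

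**Figure D3:**
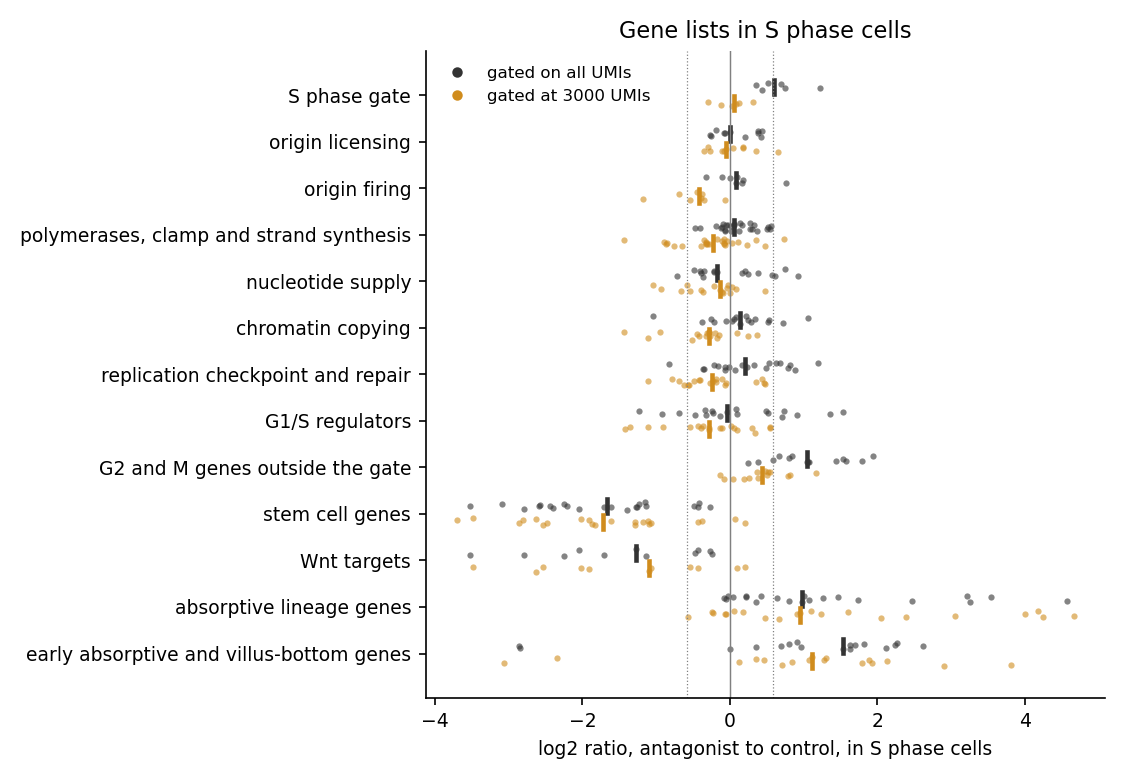
Log2 ratio of antagonist to control in S phase cells (horizontal axis) for gene lists (vertical axis), with the median of each list for cells gated on all UMIs and for cells gated at 3000 UMIs. Stem cell genes have medians of -1.66 and -1.72, replication genes outside the rule of 0.08 and -0.26, and genes of G2 and mitosis of 1.05 and 0.43.

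Stem cell transcripts were lower in S phase cells of the antagonist library. Of 22 measured stem cell genes, all 22 were lower, and 18 of these passed 1.5-fold. The median log2 ratio was -1.66. At equal depth 20 were lower, the number past 1.5-fold was again 18 and the median was -1.72. The other 5 of the 27 listed genes were under the floor of 50 UMIs, which favours genes high in control cells. Summed without that floor, the 27 together were at 5718 CPM in control and 1622 CPM in antagonist S phase cells. Lgr5 (chromosome 10, 115450311 to 115587780), the receptor for R-spondin on which the sort was based, had 89 UMIs in 67 of 236 control S phase cells and 3 UMIs in 3 of 183 antagonist cells. These are 47.2 CPM (37.9 to 58.1) and 3.54 CPM (0.730 to 10.3), a ratio of 0.0750 (0.0152 to 0.226). The samples are labelled as Lgr5-positive stem cells, and an Lgr5 UMI was found in 28.4% of control and 1.64% of antagonist S phase cells. Ascl2, a transcription factor of stem cell identity, had 146 and 9 UMIs, 77.4 and 10.6 CPM, 7.29-fold lower (3.74 to 16.3). Axin2, a feedback inhibitor of Wnt signalling, was at 137 and 28.3 CPM, 4.83-fold lower (3.18 to 7.68), and 4.16-fold lower at equal depth.

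Olfm4 (chromosome 14, 79984081 to 80023139), a secreted glycoprotein of the crypt base, was the most fully sampled of these. It was at 2395 CPM (2326 to 2466) in control and 399 CPM (358 to 444) in antagonist S phase cells, 6.005-fold lower (5.38 to 6.73), and 7.005-fold lower at equal depth. Its median per cell was 16.5 UMIs (0 to 85) in control and 1 UMI (0 to 18) in antagonist cells, so the ranges overlapped at the low end. Smoc2, another crypt base marker, differed less than these. It was at 117.8 and 83.8 CPM, 1.41-fold lower (1.07 to 1.86), and at a ratio of 1.04 (0.705 to 1.53) at equal depth. Ephb2, a sorting receptor that is graded along the crypt, and Prom1 were the members that differed least, at 43.0 and 35.4 CPM and at 84.3 and 62.6 CPM, and the interval of each included equality.

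The genes with the lowest ratios among the 2941 considered by size were Sorbs2, Lbh, Reg3b, Selenom, Sox4, Reg3g, Ascl2, Olfm4, Tifa, Rnase1, Gkn3 and Igfbp4. They were from 9.89-fold (4.11 to 31.0, Sorbs2) to 5.43-fold (3.14 to 10.1, Igfbp4) lower in antagonist S phase cells. All 12 stayed lower under each of 19 other settings of the rule, depth and scaling, but some differences shrank. The log2 ratio reached -0.63 for Selenom (-2.86 in the main setting), -0.74 for Igfbp4 (-2.39), -0.83 for Rnase1 (-2.57) and -0.92 for Sox4 (-2.86). Lbh, a transcriptional cofactor, had 161 and 8 UMIs, 85.4 and 9.44 CPM. Gkn3, a gastrokine enriched in crypt base cells, was at 131 and 23.6 CPM, 5.55-fold lower (3.52 to 9.25), and Sox4, a transcription factor of progenitors, was at 89.6 and 11.8 CPM. Reg3b and Reg3g, antimicrobial lectins, were at 1188 and 163 CPM and at 1315 and 182 CPM. They were unevenly held, with a median of 0 UMIs of Reg3b per cell in both libraries and a highest control cell of 180 UMIs. Without the highest cell of each library Reg3b was 9.17-fold lower.

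Shares of cells with a UMI pointed the same way at equal depth. Thinned to 3000 UMIs, which kept 230 control and 133 antagonist S phase cells with medians of 6990 and 4831 UMIs before thinning, Lgr5 was found in 12.2% (8.24 to 17.1) and 2.26% (0.468 to 6.45). Unthinned, the shares were 28.4% and 1.64%. Enterocyte and tuft marker cells served as background. In enterocyte marker cells the thinned Lgr5 shares were 1.02% (1 of 98, median 5682.5 UMIs) and 0 of 399 (median 5436 UMIs, upper limit 0.752%). In tuft marker cells they were 9.82% (5.72 to 15.5, median 4962 UMIs) and 1.49% (0.181 to 5.29, median 5073.5 UMIs). The control S phase share of Lgr5 thus lay above the enterocyte background, while its interval overlapped that of tuft marker cells. The antagonist share rests on 3 cells, and its interval overlapped that of tuft marker cells too.

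Ascl2 was found in 20.4% and 3.01% of thinned S phase cells (40.3% and 3.83% unthinned). It was found in 4.08% and 1.25% of enterocyte marker cells and in 14.7% and 5.97% of tuft marker cells. In control S phase cells its interval (15.4 to 26.2) lay above that of enterocyte marker cells (1.12 to 10.1). That interval overlapped the one of tuft marker cells (9.67 to 21.1). The antagonist S phase share of Ascl2 was below that of tuft marker cells, so it does not stand above this background. Axin2 was found in 36.5% and 11.3% (60.2% and 12.0% unthinned). Its shares were 10.2% and 3.26% in enterocyte marker cells and 11.04% and 5.97% in tuft marker cells. In control S phase cells Axin2 lay above both backgrounds with intervals that did not overlap (30.3 to 43.1 in S phase cells). In antagonist S phase cells (6.45 to 17.9) its interval lay above that of enterocyte marker cells (1.75 to 5.51) and overlapped that of tuft marker cells (2.61 to 11.4). Olfm4 was found in 94.3% of control and 38.3% of antagonist S phase cells (96.2% and 56.3% unthinned). In enterocyte marker cells it was found in 39.8% and 27.6%, and in tuft marker cells in 51.5% and 40.3%. The control S phase share exceeded both. The antagonist share lay between the backgrounds of its library, so whether it exceeded background depends on the class chosen.

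**Figure D4:**
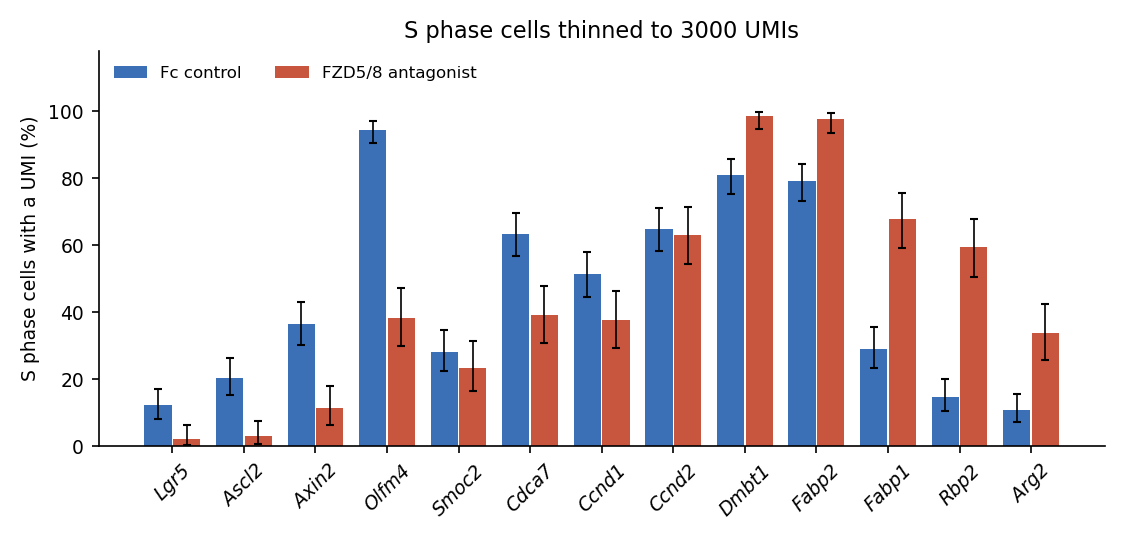
Share of S phase cells with a UMI of each gene (%, vertical axis) in the Fc control (230 cells) and FZD5/8 antagonist (133 cells) libraries, each cell thinned to 3000 UMIs, with exact 95% binomial intervals. Lgr5, Ascl2, Axin2 and Olfm4 have lower shares in the antagonist cells (2.26% against 12.2% for Lgr5), and Dmbt1, Fabp1 and Rbp2 higher shares (59.4% against 14.8% for Rbp2).

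Wnt targets showed the same direction in part. Of 11 measured genes all 11 were lower and 7 passed 1.5-fold. The median log2 ratio was -1.28, and -1.09 at equal depth, where 9 were lower. The list shares 9 of its 11 measured genes with the stem cell list, and 12 of its 23 members were under 50 UMIs. Nkd1, Notum, Apcdd1 and Wif1, inhibitors in the Wnt pathway, were at 0 in S phase cells of both libraries. Of the receptors, Fzd5 was at 58.4 and 74.4 CPM, with a ratio of 1.27 (0.920 to 1.75), and Fzd7 had 17 and 4 UMIs, with 0.524 (0.128 to 1.61). The intervals of both included equality. The co-receptor Lrp6 was at 94.95 and 67.3 CPM, 1.41-fold lower (1.04 to 1.94).

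Dmbt1 (chromosome 7, 131032053 to 131121630), a secreted scavenger receptor of the gut lining, was high in S phase cells of both libraries and higher in the antagonist library. It was at 1542 CPM (1486 to 1599) in control and 4749 CPM (4604 to 4898) in antagonist cells, a ratio of 3.08 (2.94 to 3.23), and 2.41 (2.24 to 2.59) at equal depth. Its median per cell was 8 UMIs (0 to 68) in control and 19 UMIs (0 to 92) in antagonist cells. In control cells it was 2.06-fold higher in S phase than in non-cycling cells, and in antagonist cells 1.24-fold higher. The thinned share of S phase cells with Dmbt1 was 80.9% in control and 98.5% in antagonist cells (89.4% and 98.4% unthinned). Enterocyte marker cells had it in 53.1% and 89.7% and tuft marker cells in 33.7% and 90.3%, so its detection alone does not set S phase cells apart in the antagonist library.

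Fewer antagonist than control S phase cells had a stem transcript, and nearly all antagonist cells that had one also had Dmbt1. Thinned to 3000 UMIs, 54.8% of control S phase cells (126 of 230, 48.1 to 61.3) and 15.8% of antagonist cells (21 of 133, 10.0 to 23.1) had a UMI of Lgr5, Ascl2 or Axin2. Dmbt1 at 3 or more UMIs, a limit chosen after the data had been seen, without any of the 3 stem transcripts was found in 27.4% and 78.9%. The reverse, a stem transcript with Dmbt1 below that limit, was found in 25.7% of control cells and in 1 antagonist cell (0.752%). Both together were found in 29.1% and 15.04%, which are 67 of the 126 control and 20 of the 21 antagonist cells with a stem transcript. In non-cycling cells at the same depth, Dmbt1 without a stem transcript was found in 11.9% of control and 70.9% of antagonist cells, and a stem transcript without Dmbt1 in 43.1% and 1.76%.

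The S phase shares of cells with and without an Lgr5 UMI had overlapping intervals. With all UMIs, 2.19% of control cells with Lgr5 (67 of 3059, 1.70 to 2.77) and 2.06% of those without it (1.76 to 2.39) were in S phase. In thinned cells the shares were 0.756% (10 of 1323, 0.363 to 1.39) and 1.34% (1.07 to 1.65). In the antagonist library 3 of 159 cells with Lgr5 were in S phase (1.89%, 0.391 to 5.41), and 1.66% of those without it. With all UMIs, control cells with and without Ascl2 had S phase shares of 3.16% (2.57 to 3.85) and 1.71% (1.44 to 2.01). For Axin2 these were 2.67% (2.25 to 3.14) and 1.58% (1.28 to 1.93), and for Smoc2 2.61% (2.19 to 3.09) and 1.67% (1.37 to 2.02). In thinned control cells the intervals of these genes overlapped. In thinned antagonist cells those of Smoc2 did not, at 3.30% (2.16 to 4.79) and 1.37% (1.04 to 1.76). Those of Ascl2 and Axin2 overlapped there too. Of thinned control cells with Dmbt1, 1.61% (1.27 to 2.0003) were in S phase, and of those without it 0.560% (0.314 to 0.922), intervals that did not overlap. In the antagonist library these were 1.71% and 1 of 171 (0.585%, 0.0148 to 3.22).

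Absorptive transcripts were higher in antagonist S phase cells, but several values rested on few cells. Of 21 measured absorptive lineage genes, 13 were at least 1.5-fold higher and 0 lower, with a median log2 ratio of 0.98, and 0.95 at equal depth over the same genes. Counting only genes with 50 or more UMIs in the cells gated at equal depth, the median was 0.32. It was 0.024 in S phase cells with no mitotic gene detected, and -0.34 over the 4 members measured in cells thinned to 2000 UMIs, so the direction of the group turned there. Rbp2, the retinol carrier of enterocytes, was at 85.4 and 819 CPM (ratio 9.59, 8.07 to 11.5), although 1 control cell held 74 of its 161 UMIs and 1 antagonist cell 202 of its 694. Without the highest cell of each library the ratio was 12.6. A Rbp2 UMI was found in 14.8% of control and 59.4% of antagonist thinned S phase cells (23.3% and 59.6% unthinned). In tuft marker cells it was found in 17.8% and 61.2%, so these shares do not set S phase cells apart. The part of free RNA in them was not tested. Fabp1, a fatty acid carrier, was at 449 and 888 CPM, with 509 of 847 control UMIs in 1 cell, and its ratio of 1.98 (1.79 to 2.18) was 3.77 without the highest cells. Apoa1, an apolipoprotein of chylomicrons, had 18 and 196 UMIs, 130 of the latter in 1 cell, and its ratio of 24.2 (14.9 to 41.7) was 9.79 without the highest cells.

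Further absorptive genes were examined in the same way. Fabp2, the other intestinal fatty acid carrier, was at 788 and 1882 CPM (ratio 2.39, 2.23 to 2.57), with 2.36 at equal depth. Arg2, a mitochondrial arginase, was at 42.4 and 185 CPM (4.37, 3.32 to 5.79), 3.72 at equal depth. Ces2a, a carboxylesterase, was at 22.8 and 82.6 CPM (3.62, 2.44 to 5.43), and Maoa, monoamine oxidase A, at 30.8 and 111 CPM (3.61, 2.57 to 5.09), with 1.58 (0.967 to 2.60) at equal depth. Reg1, a secreted lectin, had 80 and 127 UMIs, 59 of the latter in 1 cell. Dpp4, a brush border peptidase, at 94.95 and 89.7 CPM, and Hnf4a, a transcription factor of the intestinal epithelium, at 140 and 135 CPM, were at ratios whose intervals included equality. The early absorptive and villus-bottom list had 13 of 17 members higher by 1.5-fold and 2 lower, Reg3b and Reg3g, with a median log2 ratio of 1.54, and 1.11 at equal depth. Cox7a1, a respiratory chain subunit, at 12.2 and 75.5 CPM and Gsdmc4, a gasdermin, at 4.77 and 39.0 CPM were at its high end. Absorptive genes were at lower levels in S phase than in non-cycling cells, with 1 of 21 higher in control and 0 of 21 in antagonist S phase cells.

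**Figure D5:**
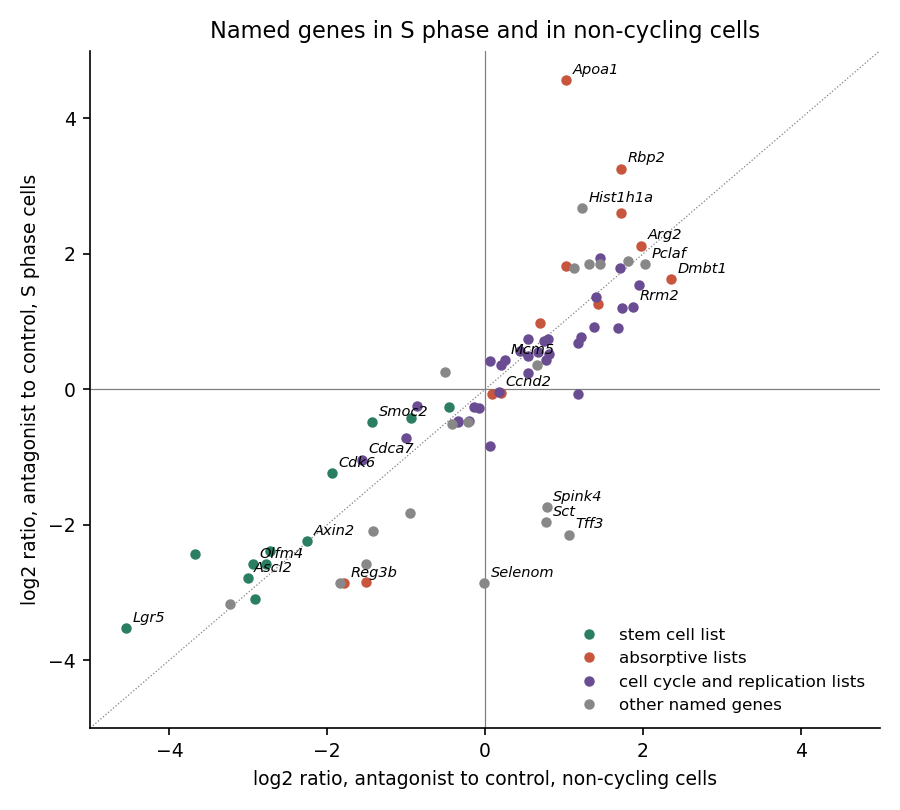
Log2 ratio of antagonist to control for the named genes in non-cycling cells (horizontal axis) and in S phase cells (vertical axis), 1 point per gene, coloured by group. Lgr5, Ascl2 and Olfm4 are low and Dmbt1, Rbp2 and Arg2 high on both axes, and goblet genes such as Tff3 lie below 0 in S phase cells (-2.15) and above 0 in non-cycling cells (1.06).

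Most of these differences were also present in non-cycling cells of the same libraries. The stem cell genes had a median log2 ratio of -1.93 there and -1.66 in S phase cells, the Wnt targets -1.86 and -1.28, and the absorptive genes 0.99 and 0.98. Lgr5 was at 93.1 and 3.92 CPM in non-cycling cells, Olfm4 at a ratio of 0.130 and Dmbt1 at 5.12. Whether S phase cells differ from non-cycling cells in their ratios was not tested, with 1 library per condition. In control cells Lgr5 was lower in S phase than in non-cycling cells, at 0.507 times its level, while Ascl2 (1.10) and Olfm4 (0.882) were near it.

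With all UMIs, the measured secretory progenitor genes and goblet markers were lower in antagonist S phase cells. Both measured secretory progenitor genes, Hes6 (60.5 and 16.5 CPM) and Foxa3 (37.7 and 8.26 CPM), were lower, 3.66-fold (2.09 to 6.91) and 4.56-fold (2.10 to 11.8). The other 10 of the 12 were under 50 UMIs, a floor that favours genes high in control cells. Summed without that floor, the 12 together were at 171 CPM (322 UMIs) in control and 40.1 CPM (34 UMIs) in antagonist cells. Of 7 measured goblet cell markers 5 were lower by 1.5-fold and 0 higher, with a median log2 ratio of -1.64, and -3.08 at equal depth. Spink4 and Tff3, secreted by goblet cells, were at 1568 and 469 CPM and at 253 and 56.7 CPM. Summed goblet markers were at 3016 CPM in control and 956 CPM in antagonist S phase cells. Of the 7 measured Paneth markers all 7 were lower by 1.5-fold with all UMIs (median -1.17), but at equal depth 6 were higher and the median was 0.31, and the rule itself limits Lyz1 and Defa genes. Cells with at least 2 detected goblet, tuft or enteroendocrine markers of 1 kind were in the S phase gate in both libraries. Without them 152 control and 153 antagonist S phase cells remained, and among these the absorptive median was 0.48. Tff3 then had 3 UMIs over both libraries, and Spink4 had 197, with a log2 ratio of -0.067. Both genes are among the markers that chose the removed cells, so the loss of their UMIs follows from that choice. In cells thinned to 5000 UMIs the goblet median was 0.40 and Tff3 was at 0.83, so the direction of these turned with the setting. No doublets had been removed, and their part in these values was not tested.

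Other groups in the S phase cells had few genes past 1.5-fold. Of 24 measured ribosome biogenesis genes 0 were higher and 3 lower by 1.5-fold, with a median log2 ratio of -0.25 that was -0.25 at equal depth too, against -0.09 for all genes. By any amount 18 of the 24 were lower, against 3436 of all 5894 genes counted. Their median in non-cycling cells was -0.34. Of 5 measured p53 response genes 1 was higher and 1 lower by 1.5-fold. Among 5 measured Notch pathway genes 1 was lower by 1.5-fold, and Hes1, the Notch effector that holds cells to the absorptive side, was at 93.9 and 112 CPM with an interval that included equality. The 9 epithelial markers had a median of -0.02.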

How the data were processed

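The files as deposited give, for each gene and barcode, a whole-number UMI count without normalization. The authors used Cell Ranger, version 3.1.0 per the file headers, with GRCm38 (mm10) named in the submitters' processing notes. The annotation release and the way barcodes were chosen are not stated in the labels. In all, 67411637 UMIs in 12672 barcodes came from the control and 55810293 in 13085 from the antagonist. Cells with 500 or more of 31053 genes and at most 20% mitochondrial UMIs were kept, 88.9% and 84.2% of barcodes, with medians of 4478 and 2732 UMIs. No doublet caller was run and doublets remained.

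UMIs were summed over the S phase cells of a library and divided by their total (CPM). Intervals at 95% were exact: Poisson for levels, conditional binomial for ratios and Clopper-Pearson for shares. They cover counting error only, and a count of 0 was given an upper limit of 3 counts. Log2 ratios had 0.5 added to each sum. Genes with 50 or more UMIs over both libraries in S phase cells were counted, without the 11 genes of the rule, and a ratio of 1.5 or its inverse was the limit for a call. Cells were thinned without replacement (seed 1).

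Named genes were the 12 highest and 12 lowest ratios among genes reaching 50 CPM in either library with 100 UMIs in total (left out were unnamed gene models, mitochondrial genes and those of ribosomal proteins, haemoglobins, immunoglobulins and T cell receptors), the genes of the rule, a set of stem cell, cyclin and receptor genes, and the 2 highest and 2 lowest members of each list with 20 CPM in a library; examples were taken from these. Others named in the text were chosen after their values were seen. Members, lists and rules were chosen with earlier results of these data known. Coordinates came from GENCODE M21 on GRCm38, and promoters from RefSeq on GRCm38.p6. Alternatives were other thresholds of the rule, depths, cell filters, scalings and limits on low counts. Chosen after seeing the data were gating at 3000 UMIs with levels from all UMIs, a window of 3000 to 8000 UMIs, other seeds, and leaving out shared barcodes, secretory marker cells or the highest cell. Ratios were tested on simulated counts. The work used Python 3.11.15, numpy 2.4.6, scipy 1.17.1 and pandas 2.3.3.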

Additional observations from a re-analysis of the deposited data

Results flagged for a closer look

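Goblet cell markers and 2 of their genes went in opposite directions in S phase and in non-cycling cells, as did a hormone gene. The median log2 ratio of antagonist to control over the goblet list was -1.64 in S phase cells and 1.22 in non-cycling cells. Tff3, the trefoil factor of mucus, was at -2.15 and 1.06, and Spink4, a protease inhibitor of goblet cells, at -1.74 and 0.78. Sct, the gene of the hormone secretin, was at -1.96 in S phase cells, from 47 and 5 UMIs, and 0.78 in non-cycling cells. With 1 library per condition the difference was not tested. Of the control S phase UMIs, 1 cell held 14.7% of Tff3, 17.2% of Spink4 and 29.8% of Sct. The part of doublets and free RNA in these values was not tested. Without cells holding at least 2 secretory markers of 1 kind, Spink4 was at -0.067 in S phase cells and Tff3 had 3 UMIs. Both are among those markers, so these values follow from the choice of the removed cells and decide nothing. Thinned to 5000 UMIs, the goblet list was at 0.40 in S phase cells.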

How the results depend on the processing

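The stem cell median was lower in the antagonist library in all 21 alternatives (-1.88 to -1.10). That of ribosome biogenesis genes was below 0 in all 21 too (-0.33 to -0.09). The replication median stayed within -0.26 to 0.24 and changed sign in 6 of 21. The absorptive median kept its direction in 20 of 21 and was 0.54 with at least 3 of the 6 genes, 0.024 with no mitotic gene, 0.53 over genes with 200 or more UMIs, 0.32 gated at 3000 UMIs, 0.22 in the window of 3000 to 8000 UMIs, 0.48 without secretory marker cells and -0.34 at 2000 UMIs. The ratio of S phase shares was reversed at 3000 UMIs (1.35, and 1.13 and 1.21 with other seeds) and at 2000 UMIs (1.67). Without secretory marker cells among the S phase cells the shares with all UMIs were 1.35% and 1.39%, of kept cells that still included such cells. That removal rests on detected markers and so depends on depth too.

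The numbers of genes at least 1.5-fold higher and lower, 361 and 830, were 180 and 232 with at least 5 genes, 191 and 244 with no mitotic gene, 200 and 161 thinned to 3000 UMIs, 82 and 50 at 2000, 190 and 314 at 5000, 188 and 348 gated at 3000 UMIs, 658 and 1579 over genes with 20 or more UMIs, and 119 and 135 over genes with 200 or more. Centring on the median gave 542 higher. Fewer genes reach 50 UMIs in fewer or thinned cells. Raising the floor to 200 UMIs, with the same cells, also left a smaller excess of lower genes.

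Of 61 named genes whose interval excluded equality, 37 kept their direction in every alternative. Many named genes were picked for extreme ratios and some are genes of the rule, so this count describes that set only. Reversed log2 ratios were, thinned to 3000 UMIs, Brca1 -0.018, Ccne1 -0.42, Fbxo5 -0.20, Mcm5 -0.23, Mcm6 -0.17, Mcm7 -0.49, Rfc4 -0.21, Smoc2 0.10, Uhrf1 -0.35 and the S phase gate list -0.075. At 2000 UMIs they were Apoa1 -2.58, Ccne1 -0.074, E2f8 -0.20, Fabp1 -0.51, Fabp2 -0.16, Fbxo5 -0.16, Hist1h1a -0.28, Lrp6 0.18, Mcm5 -0.38, Paics 0.24, Rbp2 -1.07, Rfc4 -0.071, Smoc2 0.58, Uhrf1 -0.11 and the early absorptive list -0.050. At 5000 UMIs they were Gart 0.043, Mcm5 -0.17, Mcm6 -0.12, Mcm7 -0.094, Pcna -0.18, Tff3 0.83, Top2a -0.17, the Paneth list 0.14 and the goblet list 0.40. Gated at 3000 UMIs they were Ccne1 -0.10, Ccne2 -0.14, Mcm5 -0.12, Mcm7 -0.30, Rfc4 -0.038, Sct 0.29, Smoc2 0.065, Top2a -0.30, Uhrf1 -0.29 and the Paneth list 0.47. With at least 3 genes they were Gart 0.16, Sct 0.049 and Spink4 0.16, in the window of 3000 to 8000 UMIs Mcm5 -0.11 and Mcm6 -0.10, and with no mitotic gene Fabp1 -0.83. The cause was not tested. No paired analysis was possible because each condition has 1 library. Depth limits the antagonist values of rare genes: Lgr5 had 3 UMIs and Ascl2 9 in its S phase cells.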
